A study of Homo sapiens with 4 samples.

Results

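The genes described here are 48 classical interferon-stimulated genes, chosen by name and without the chemokines, STATs and antigen presentation genes that interferon also induces. All 48 were found on the array through the gene symbols of the platform, 47 under the listed symbol and 1, DDX58, under its newer symbol RIGI. They were measured by 127 of the 49293 probe sets and represent 48 of the 18244 genes analysed. Their expression was compared in SeAx, a cell line of Sézary syndrome, the leukemic form of cutaneous T-cell lymphoma. Total RNA was hybridized to 4 Affymetrix PrimeView arrays. In 2 of these the RNA came from control cells, and in 2 from cells that carried a lentiviral vector encoding miR-124 and had been selected with puromycin. The labels call the first group only control, and the study describes these cells as non-transduced. No array of cells with an empty vector was analysed here, so that effects of miR-124, of lentiviral transduction and of selection cannot be told apart. Whether the replicate arrays represent separate cultures is not given in the sources used here, and the p-values may measure technical spread only. Arrays are named by the number in their label, 1 or 2.

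Interferons are secreted proteins that bind receptors on the same or neighboring cells and activate JAK kinases and STAT transcription factors. Type I and type III interferons act mainly through a complex of STAT proteins with IRF9 that binds the interferon-stimulated response element (ISRE) in promoters. Interferon gamma, a product of activated T cells, acts mainly through gamma-activated sites (GAS). The induced proteins sense viral RNA and DNA, block the entry, translation or release of viruses, or regulate the response itself.

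The letters of these elements were common in the promoters of the interferon-stimulated genes. RefSeq promoters (GRCh38.p14, 250 bases before to 50 after the gene start) were available for 37 of the 48 genes. The ISRE core, GAAA followed after any 2 bases by GAAA and read on both strands, was present in 26 of these 37 genes (70.3%), against 4.38% of 27305 genes with a promoter in the table. The GAS core TTCNNNGAA, which reads the same on both strands, was present in 13 of the 37 (35.1%), against 9.38% of all. Copies of both motifs overlapped in 5 of the genes. These are matches of letters and say nothing about occupancy. Stretches of 60 bases follow for examples picked among the genes with a copy. They run in the direction of the gene, with each complete motif copy in capitals. The first 6 are genes with higher values in the arrays numbered 2, and the remaining 5 had an unadjusted p under 0.05 between the conditions on at least 1 probe set. IFI44L and SP110 also had such a p and a core but are not shown. RIGI, higher by 0.46 in the arrays numbered 2, had neither core. ISRE copies on the opposite strand appear as a pair of TTTC.
ISG15 (GRCh38.p14, chr1:1013365-1013424, plus strand): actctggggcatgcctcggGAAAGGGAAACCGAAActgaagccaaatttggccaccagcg
IFIT1 (GRCh38.p14, chr10:89392495-89392554, plus strand): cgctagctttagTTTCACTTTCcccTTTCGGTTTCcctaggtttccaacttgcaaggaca
IFIT3 (GRCh38.p14, chr10:89327850-89327909, plus strand): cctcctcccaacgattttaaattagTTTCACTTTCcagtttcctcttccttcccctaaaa
RSAD2 (GRCh38.p14, chr2:6877607-6877666, plus strand): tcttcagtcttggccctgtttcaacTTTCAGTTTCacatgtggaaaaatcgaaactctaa
LGALS3BP (GRCh38.p14, chr17:78979947-78980006, minus strand): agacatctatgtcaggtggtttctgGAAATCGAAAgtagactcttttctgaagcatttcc
IFI44 (GRCh38.p14, chr1:78649746-78649805, plus strand): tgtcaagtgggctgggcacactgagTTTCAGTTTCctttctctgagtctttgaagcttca
GBP1 (GRCh38.p14, chr1:89065301-89065360, minus strand): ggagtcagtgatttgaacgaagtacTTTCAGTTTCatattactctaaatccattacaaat
PLSCR1 (GRCh38.p14, chr3:146544652-146544711, minus strand): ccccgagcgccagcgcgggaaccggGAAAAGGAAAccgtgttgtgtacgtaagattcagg
SAMD9 (GRCh38.p14, chr7:93118081-93118140, minus strand): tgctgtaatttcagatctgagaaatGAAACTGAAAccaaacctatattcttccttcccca
IFI35 (GRCh38.p14, chr17:43006737-43006796, plus strand): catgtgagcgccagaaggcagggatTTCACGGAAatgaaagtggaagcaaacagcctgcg
IRF1 (GRCh38.p14, chr5:132490863-132490922, minus strand): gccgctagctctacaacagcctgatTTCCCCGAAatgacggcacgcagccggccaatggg
The ISRE copies of ISG15 overlap each other and those of IFIT1 lie 3 bases apart. The copy of LGALS3BP starts 58 bases before the gene start, and the GAS copy of IFI35 starts 22 bases before it.

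Each value is the log2 signal of a probe set, and each gene is represented by its probe set with the highest mean unless another is named. The arrays had nearly equal distributions, with medians of 7.27 to 7.31. The 23 background probe sets had means of 5.18 to 5.23 per array, and 45 of the 48 interferon-stimulated genes had a mean above background in at least 1 condition. EPSTI1, HERC5 and MX1 lay under it in both, so that their differences are not interpreted. Among 7 T-cell markers CD3D, CD3G, CD2 and IL2RG had means of 12.03, 11.85, 10.88 and 13.07, far above background, and CD3E, CD4 and LCK had means nearer to it, of 5.54, 6.19 and 6.51. Of the monocyte markers LYZ lay under background, and CD14 and CSF1R had means of 6.17 and 10.11. The keratinocyte marker KRT14 and CLEC4C of plasmacytoid dendritic cells lay under background, and KRT5 had a mean of 5.61. The B-cell markers CD79A and MS4A1 had means of 7.41 and 5.41, and the fibroblast markers COL1A1 and COL1A2 of 8.78 and 5.57. None of these markers passed the threshold between the conditions described next.

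No interferon-stimulated gene passed the threshold of the study, an unadjusted p under 0.05 with a fold change above 1.5, on its representative probe set. Of all 18244 genes 0.153% passed it in the fit made here, 0.0658% as higher and 0.0877% as lower. The study reported far more differentially expressed genes at this threshold, and the reason for the difference was not tested. On a single dimmer probe set each, IFI35 and PLSCR1 rose in miR-124-transduced cells. This makes 2 of 127 probe sets, both higher, against 0.185% of all probe sets in either direction, 0.069% as higher and 0.116% as lower. The genes were chosen with earlier results of these data known, so that the shares are not an independent comparison. Both are of the type (suffix s) whose probes are shared by several transcripts. Benjamini-Hochberg adjusted p-values under 0.05 were found for 0 genes and 0 probe sets of the whole array in limma. At an unadjusted p under 0.05 these numbers were 813 and 2331.

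Among the interferon-stimulated genes 5 of 48 had an unadjusted p under 0.05 in limma, against 4.46% of all genes. Of these, IFI35, IRF1 and GBP1 were higher in miR-124-transduced cells (2.7% of all genes), and IFI44L and SAMD9 were lower (1.76% of all genes). Counted over probe sets, 9 of 127 had such a p, 7 higher and 2 lower, against 4.73%, 2.68% and 2.05% of all probe sets. The mean was higher in miR-124-transduced cells for 21 genes, against 51.8% of all genes, and lower for 27. Their log2 fold changes had a median of -0.03 and quartiles of -0.12 and 0.09, beside a median of 0.01 and quartiles of -0.08 and 0.10 over all genes.

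The arrays of the conditions did not overlap in 13 of the 48 genes, against 34.2% of all genes. CMPK2, GBP1, GBP4, IDO1, IFI35, IFITM1 and IRF1 lay above the controls (18.7% of all genes), and IFI44L, IFIH1, IFIT5, SAMD9, USP18 and XAF1 below them (15.5%). Over probe sets this held for 39 of 127, against 34.7%, with 22 above (18.8%) and 17 below (15.9%), and 60 had the higher mean in miR-124-transduced cells (51.5%). These shares were near those of the whole array. Of the 30 genes with several probe sets, 13 had the same sign of fold change on all of them and 17 had both signs.

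**Figure D1:**
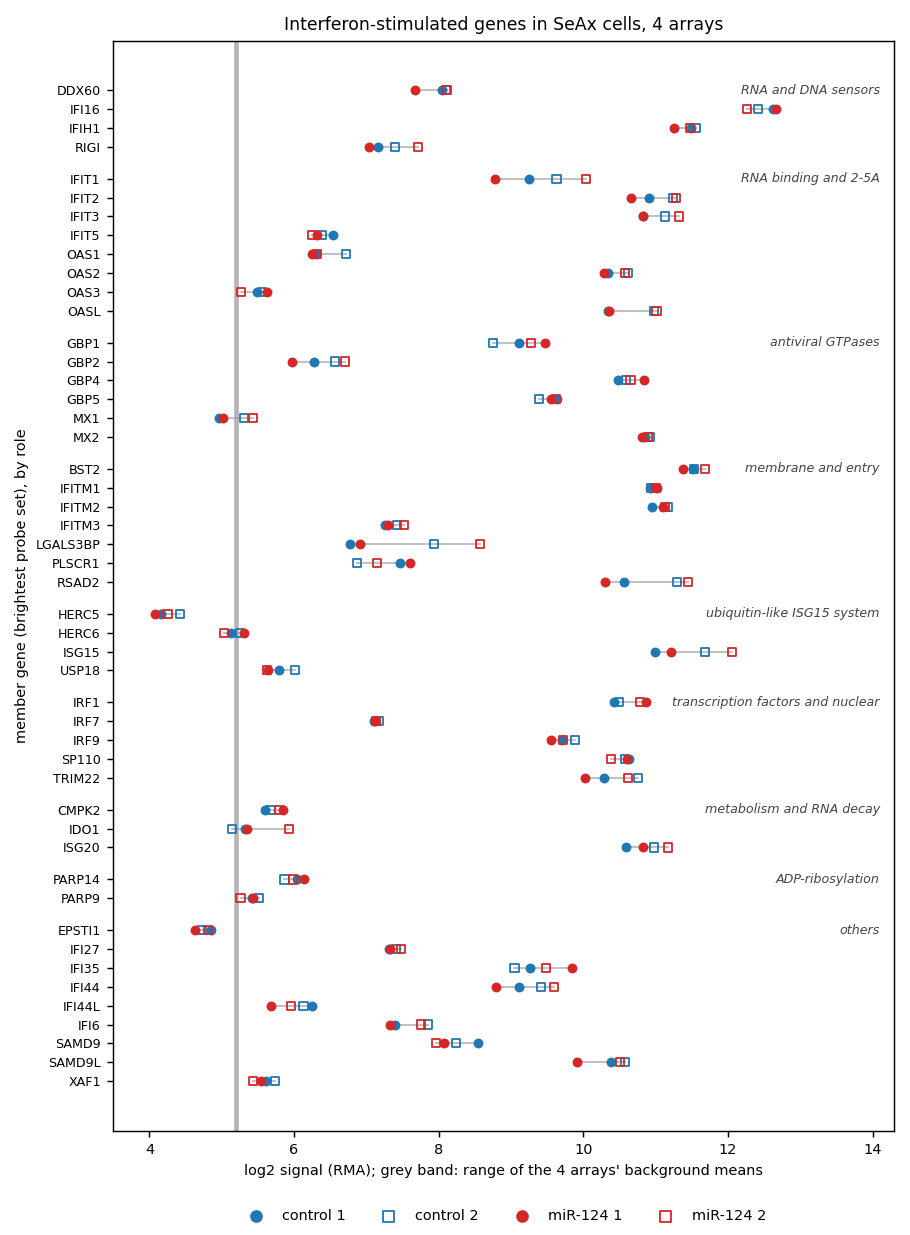
Log2 signal (x axis) of the 48 interferon-stimulated genes (y axis, grouped by role) on each of the 4 arrays. Blue marks control, red miR-124, filled circles arrays numbered 1 and open squares arrays numbered 2, and the grey band is the range of the background means, 5.18 to 5.23. In RSAD2, OASL, ISG15 and LGALS3BP both open squares lie to the right of both circles, whereas in IRF1 both red symbols lie to the right of the blue ones.

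IFI35, a leucine zipper protein that interferon induces in many cell types, had the highest fold change of the 48 genes. Its representative probe set read 9.26 and 9.05 in control, and 9.84 and 9.48 in miR-124-transduced cells. Both miR-124 values lay above both controls, with a difference of 0.50 on the log2 scale or 1.42-fold (SE 0.16, unadjusted p = 0.0276 from limma, adjusted p = 0.886). The other IFI35 probe set read 8.33 and 8.34 in control and 9.26 and 8.94 in miR-124 arrays. It passed the threshold at a difference of 0.76 or 1.7-fold (SE 0.13, unadjusted p = 0.00315 from limma, adjusted p = 0.875), and did so with each array left out in turn, at 0.60 to 0.92. The representative probe set passed it at 0.61 when control replicate 1 was left out and at 0.68 when miR-124 replicate 2 was, and the mean of both probe sets passed at 0.63. It was 0.40 (unadjusted p = 0.14 from limma) when control replicate 2 was left out and 0.33 (unadjusted p = 0.083 from limma) when miR-124 replicate 1 was.

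IRF1, the transcription factor that interferon gamma induces through the GAS of its promoter, read 10.43 and 10.50 in control and 10.87 and 10.79 in miR-124 arrays. The difference of 0.37 (SE 0.09, unadjusted p = 0.00964 from limma, adjusted p = 0.886) was larger than the gap of 0.07 or 0.08 between arrays of a condition, but equals only 1.29-fold. Of its other probe sets, those with means of 8.99 and 8.27 were also higher, by 0.19 and 0.42, and the dimmest differed by -0.18. With single arrays left out the fold change of the representative probe set was 0.33 to 0.41, with an unadjusted p of 0.078 without control replicate 1. The mean of all its probe sets gave 0.20 (unadjusted p = 0.065 from limma).

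GBP1, an interferon-induced GTPase that acts against intracellular pathogens, read 9.11 and 8.74 in control and 9.47 and 9.28 in miR-124 arrays. The log2 difference was 0.45 (SE 0.16, unadjusted p = 0.04 from limma, adjusted p = 0.886), and all 5 of its probe sets were higher, by 0.05 to 0.45. Of these, 4 are of the type (suffix x) with probes that also occur in other transcripts. Without control replicate 1 it passed the threshold at 0.63, and without control replicate 2 its fold change was 0.26 with an unadjusted p of 0.18. Its chromosomal neighbors in the GBP cluster differed by less. GBP4 had a fold change of 0.21, with both miR-124 arrays above both controls, on a probe set that also has the suffix x. The 5 probe sets of GBP4 gave -0.02 to 0.21, some of them with overlapping arrays. GBP5 and GBP2 had fold changes of 0.08 and -0.09 with overlapping arrays, and the other GBP5 probe set gave 0.17 without overlap.

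PLSCR1, a phospholipid scramblase with antiviral activity, differed between its 6 probe sets. The probe set that passed the threshold read 5.59 and 5.08 in control and 6.21 and 6.02 in miR-124 arrays. The groups did not overlap, and the difference was 0.78 or 1.71-fold (SE 0.20, unadjusted p = 0.013 from limma, adjusted p = 0.875). Control 2 lay under the background mean of its array, 5.18, so that the fold is uncertain. The 3 brighter probe sets gave 0.21, 0.21 and 0.23 with overlapping arrays, and the 2 under background gave 0.03 and -0.09. The call was lost when control replicate 2 was left out, at 0.52, and when miR-124 replicate 1 was, at 0.68 with an unadjusted p of 0.064. The brightest PLSCR1 probe set read 7.46 and 6.87 in control and 7.61 and 7.15 in miR-124 arrays, and therefore followed the array number more than the condition. Its fold change turned to -0.08 without control replicate 2 and to -0.02 when miR-124 replicate 1 was left out.

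**Figure D2:**
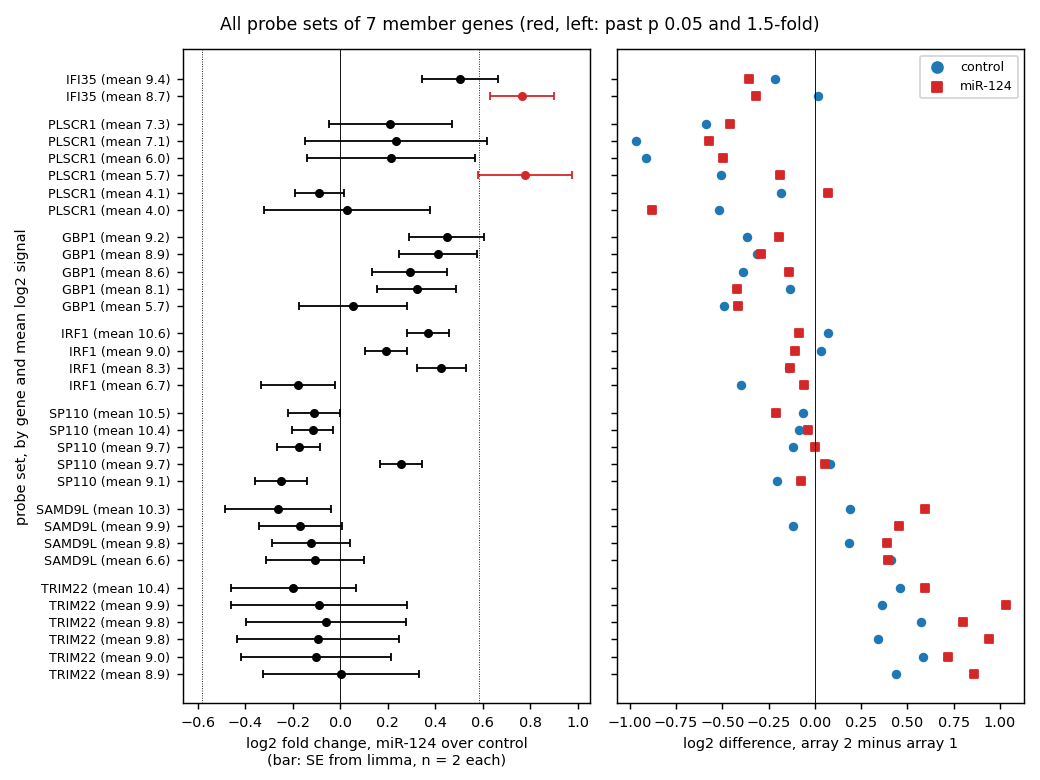
All probe sets of IFI35, PLSCR1, GBP1, IRF1, SP110, SAMD9L and TRIM22 (y axis, with mean log2 signal). The left panel shows the log2 fold change of miR-124 over control with its standard error from limma (n = 2 each) and, in red, the 2 probe sets past the threshold, and the right panel the difference between arrays 2 and 1 in control (blue) and miR-124 (red) cells. All 5 probe sets of GBP1 lie right of 0 on the left panel, and all 6 of TRIM22 right of 0 in both conditions on the right one.

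SAMD9, an antiviral and growth-restricting protein, had the lowest fold change. It read 8.54 and 8.24 in control and 8.07 and 7.97 in miR-124 arrays, a difference of -0.38 (SE 0.13, unadjusted p = 0.0383 from limma, adjusted p = 0.886) without overlap. Without control replicate 1 it was -0.23, with an unadjusted p of 0.19. Its neighbor and paralog SAMD9L read 10.383 and 10.572 in control and 9.915 and 10.51 in miR-124 arrays, with overlapping arrays. The SAMD9L fold change was -0.26, and it was negative on all 4 of its probe sets. Without miR-124 replicate 1 the SAMD9L value was 0.03.

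IFI44L, an interferon-induced protein of unclear function, read 6.25 and 6.13 in control and 5.69 and 5.95 in miR-124 arrays, a difference of -0.37 (SE 0.12, unadjusted p = 0.0338 from limma, adjusted p = 0.886) without overlap. With single arrays left out it was -0.50 to -0.24, and the unadjusted p stayed under 0.05 only without miR-124 replicate 2. Its other probe set above background gave -0.10, and the mean of all its probe sets -0.15. USP18, which removes ISG15 from proteins and restrains the type I interferon receptor, read 5.79 and 6.01 in control and 5.64 and 5.62 in miR-124 arrays. The difference of -0.27 had an unadjusted limma p of 0.0563. OAS1, an oligoadenylate synthetase, read 6.30 and 6.71 against 6.25 and 6.31, with overlapping arrays. Its other probe set above background was higher in miR-124 arrays, by 0.205 without overlap. The mean of all OAS1 probe sets gave -0.07. The signals of these 3 genes lay close to background.

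IDO1, the tryptophan-degrading enzyme induced by interferon gamma, read 5.32 and 5.15 in control and 5.34 and 5.93 in miR-124 arrays. Its first miR-124 value lay 0.02 above the higher control, and the difference of 0.40 (unadjusted p = 0.128 from limma) therefore rested on miR-124 2. Without miR-124 replicate 1 it passed the threshold at 0.69, and without miR-124 replicate 2 it was 0.11. Control 2 lay under the background mean of its array, 5.18, and control 1 close to it, which limits how exactly a fold can be given.

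The larger differences among the interferon-stimulated genes lay between the arrays numbered 2 and those numbered 1, within each condition. What the number stands for is not given in the sources used here. Of the variance of the 48 genes over the 4 arrays, 71.7% lay between the array numbers, 18.3% between the conditions and 10% along the remaining contrast, beside 60%, 27% and 13% over all genes. The difference by number was larger than that by condition in 33 of the 48 genes, against 55.5% of all genes. In 27 genes array 2 was above array 1 in both conditions, against 34.2% of all genes, and in 8 it was below, against 31.7%. A mean difference above 1.5-fold with the same direction in both conditions was present in 5 of the 48 genes, all higher in the arrays numbered 2, against 1.62% of all genes higher and 0.713% lower. Over probe sets the counts were 81 of 127 with the larger difference by number (54.8% of all), 64 above in both conditions (33.6%) and 32 below (31.6%). Past 1.5-fold were 13 probe sets upwards (1.57%) and 4 downwards (0.882%), the latter of IFI16 and PLSCR1. The values are given without a test, since the number was not a comparison of the study. The only probe sets of LGALS3BP and ISG15 and all 3 of IFI16 have the suffix s, whose probes are shared by several transcripts. The only OASL probe set has the suffix x, with probes that also occur in other transcripts.

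LGALS3BP, a secreted glycoprotein that binds galectins, had the largest difference of this kind. It read 6.78 in control 1 and 7.94 in control 2, and 6.91 in miR-124 1 and 8.58 in miR-124 2. Both arrays numbered 2 were above both arrays numbered 1, by 1.41 on average on the log2 scale. Its difference between the conditions, 0.39, had a standard error of 0.67, and turned to -0.20 without control replicate 1 and to -0.45 without miR-124 replicate 2.

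RSAD2, or viperin, a radical SAM enzyme that restricts many viruses, read 10.57 in control 1 and 11.29 in control 2, and 10.30 in miR-124 1 and 11.45 in miR-124 2. The difference by number was 0.93 and the difference by condition -0.05 (standard error 0.45). Its second probe set gave 1.20 and -0.16. CMPK2, a nucleotide kinase that neighbors RSAD2 on chromosome 2, differed by 0.01 by number, at values of 5.60 to 5.85.

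IFIT1, which binds viral RNA and blocks its translation, read 9.25 in control 1 and 9.63 in control 2, and 8.78 in miR-124 1 and 10.04 in miR-124 2. The miR-124 arrays thus lay on either side of both controls. The difference by condition was -0.03 (standard error 0.44), and IFIT1 passed the threshold as higher without miR-124 replicate 1, at 0.60, and as lower without miR-124 replicate 2, at -0.66. In the same cluster on chromosome 10, IFIT2 and IFIT3 were higher in the arrays numbered 2 by 0.48 and 0.40, and IFIT5 was not, at -0.11.

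ISG15, the ubiquitin-like protein that is attached to other proteins and also secreted, read 10.98 in control 1 and 11.68 in control 2, and 11.21 in miR-124 1 and 12.06 in miR-124 2. Within each number the miR-124 array was higher, by 0.22 and 0.38, but the arrays of the conditions overlapped. The log2 fold change of 0.30 had a standard error of 0.37. It turned to -0.05 without control replicate 1 and to -0.12 without miR-124 replicate 2.

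OASL, a relative of the oligoadenylate synthetases that enhances RNA sensing, read 10.34 in control 1 and 10.97 in control 2, and 10.35 in miR-124 1 and 11.01 in miR-124 2. The conditions matched within 0.04 at each number, while the numbers differed by 0.65. The fold change was 0.02, but -0.29 when control replicate 1 was left out and -0.30 when miR-124 replicate 2 was.

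**Figure D3:**
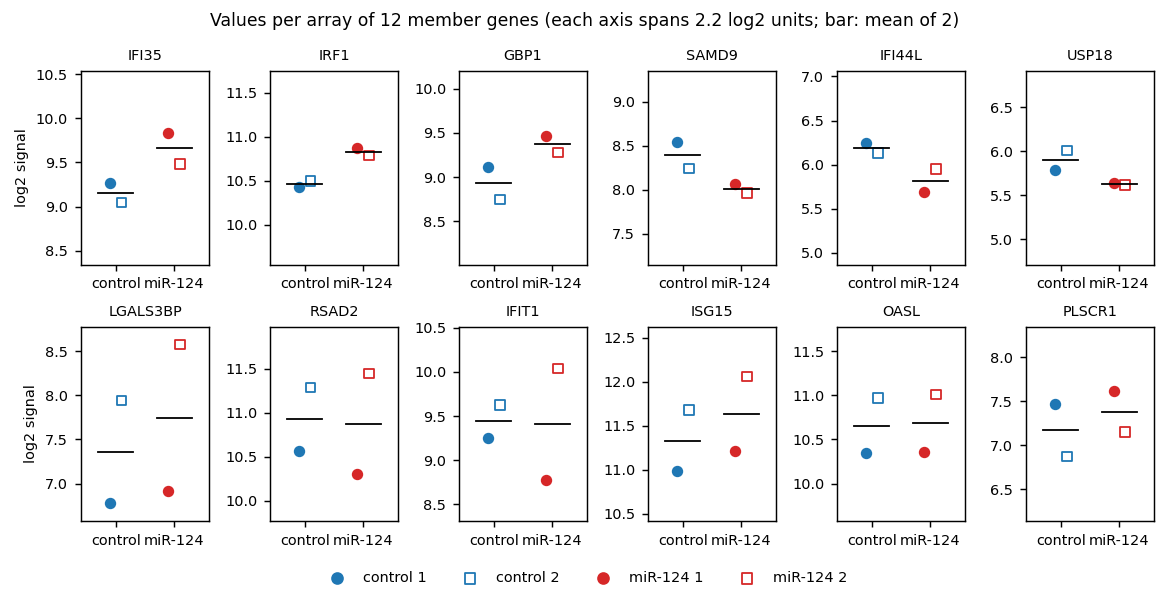
Log2 signal (y axis, the same span in every panel) on each array for 12 interferon-stimulated genes, with bars at the mean of the 2 arrays of a condition. In the upper row the miR-124 arrays of IFI35, IRF1 and GBP1 lie above both controls and those of SAMD9, IFI44L and USP18 below. In the lower row the squares (arrays numbered 2) of LGALS3BP, RSAD2, IFIT1, ISG15 and OASL lie above the circle of the same condition and those of PLSCR1 below.

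Among the RNA sensors, RIGI, which recognizes viral RNA ends, was higher in the arrays numbered 2 by 0.46, with the same direction on all 3 probe sets, and its fold change by condition was 0.09. IFIH1, or MDA5, a sensor of long double-stranded RNA, read 11.49 and 11.56 in control and 11.26 and 11.47 in miR-124 arrays. The arrays did not overlap, at a difference of -0.16 (unadjusted p = 0.207 from limma), which was -0.05 without miR-124 replicate 1 and -0.27 without miR-124 replicate 2. DDX60, a helicase linked to RNA sensing, differed by -0.19. IFI16, a sensor of DNA, ran opposite to most of the group by number. It read 12.63 and 12.41 in control and 12.67 and 12.26 in miR-124 arrays, and its 3 probe sets had differences by number of -0.59 to -0.31.

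The oligoadenylate synthetases and IFIT proteins as a group had a median difference of 0.34 by number and -0.06 by condition. OAS2 had 5 probe sets, all lower in miR-124 arrays with differences of -0.17 to -0.04, and 4 of them were higher in array 2 of both conditions. OAS3 lay close to background at 5.27 to 5.63. The antiviral GTPases were divided. GBP2 had a difference by number of 0.51 and GBP1 of -0.28, and MX2, which blocks retroviruses at the nuclear pore, differed by 0.07 by number and -0.03 by condition.

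Among the membrane proteins that restrict viral entry and release, IFITM1 read 10.93 and 10.94 in control and 11.01 and 11.00 in miR-124 arrays, and IFITM2 10.95 and 11.18 against 11.10 and 11.13. IFITM3 had values of 7.25 to 7.52. The probe sets of these 3 paralogs given here have the suffix x, so that their values may not be separate. BST2, or tetherin, which holds virus particles at the cell surface, read 11.52 and 11.53 in control and 11.38 and 11.68 in miR-124 arrays. Its fold change was 0.00, at -0.15 to 0.15 with single arrays left out. All 4 BST2 probe sets had values of 0.00 to 0.29, the highest with both miR-124 arrays above both controls (unadjusted p = 0.0952 from limma), and their mean gave 0.11.

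Of the transcriptional regulators, IRF9, a DNA-binding partner of STAT proteins, was higher in array 2 of both conditions on all 4 probe sets, by 0.17 to 0.29. By condition its brightest probe set gave -0.16 and the other 3 gave 0.14 to 0.16. IRF7, the regulator of type I interferon genes, stayed within 7.11 and 7.17 on the 4 arrays. TRIM22, an antiviral ubiquitin ligase, was higher in the arrays numbered 2 on 6 of 6 probe sets, by 0.53 to 0.70, with fold changes by condition of -0.20 to 0.00. SP110, a nuclear body protein, was lower on 4 of its 5 probe sets and higher on 1, by 0.25 (unadjusted p = 0.0371 from limma).

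Of the remaining genes, ISG20, an exonuclease, had a fold change of 0.21 and a difference by number of 0.37, with overlapping conditions. IFI44 was higher in the arrays numbered 2 by 0.55 and IFI6, a mitochondrial and endoplasmic reticulum protein, by 0.45, with fold changes of -0.07 and -0.09. IFI27 had values of 7.32 to 7.48. The ADP-ribosyltransferases PARP9 and PARP14 had fold changes of -0.12 and 0.11, and XAF1, an apoptosis-promoting protein, of -0.19. The means of PARP9, PARP14 and XAF1, 5.40, 6.01 and 5.58, lay close to background. HERC6 lay at background, at 5.03 to 5.31.

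Grouped by promoter letters, 18 genes had the ISRE core only, with a median difference by number of 0.20, and 11 of them were higher in array 2 of both conditions, against 34.2% of all genes. The 11 genes without a promoter in the table had the same median of 0.20, and 8 of them were higher in array 2 of both conditions. In the 5 genes with the GAS core only, IFI35, IRF1, IRF9, OAS1 and SP110, the median was -0.01. The 8 genes with both cores had a median of 0.07, and the 6 genes with neither 0.01. Of these 3 groups 2 of 5, 4 of 8 and 2 of 6 genes were higher in array 2 of both conditions. Of all 48 genes 27 were (56.2%). By condition the 5 genes with the GAS core only had a median difference of -0.11. IFI35 and IRF1 were at 0.50 and 0.37, and IRF9, OAS1 and SP110 at -0.16, -0.23 and -0.11. The groups are small, and these medians are descriptive.

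**Figure D4:**
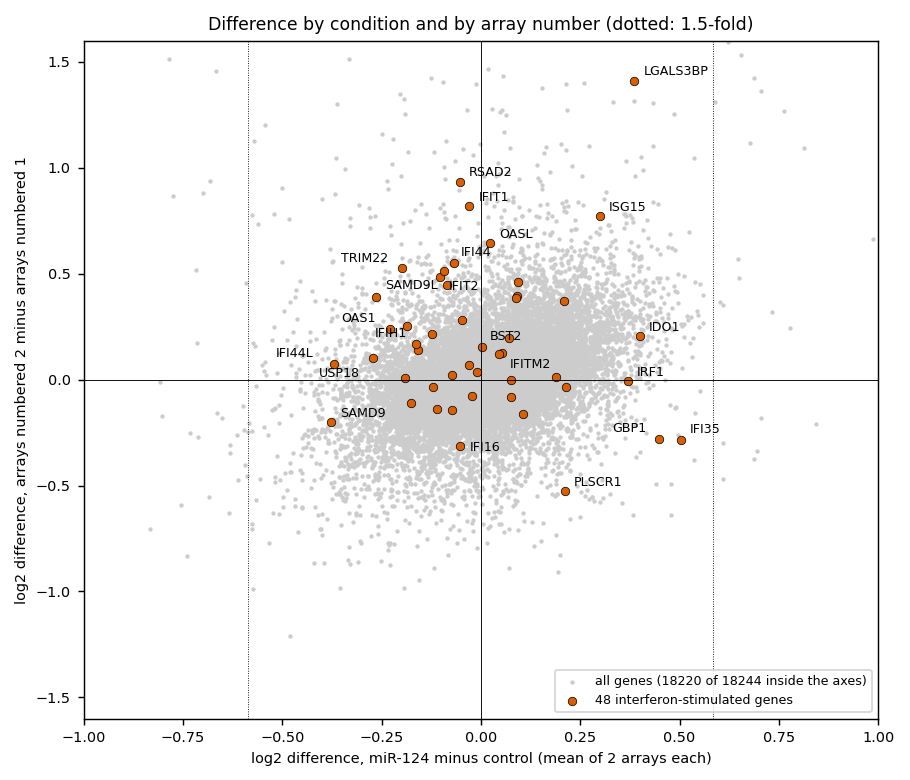
Log2 difference between conditions (x axis) and between the arrays numbered 2 and 1 (y axis) for the 48 interferon-stimulated genes (orange) and for the other genes that lie inside the axes (grey). No orange point passes the dotted lines at 1.5-fold by condition. LGALS3BP, RSAD2, IFIT1, ISG15 and OASL lie at the top, from 0.65 to 1.41, and IFI35, GBP1, IDO1 and IRF1 at the right, from 0.37 to 0.50.

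Of the genes of interferons, IFNG and IFNL1 were also higher in the arrays numbered 2. IFNG, which encodes interferon gamma, read 5.28 in control 1 and 7.58 in control 2, and 4.43 in miR-124 1 and 7.72 in miR-124 2, and IFNL1, a type III interferon, 6.92, 8.08, 7.37 and 10.14 in the same order. By condition their differences were -0.36 (SE 1.33) and 1.26 (SE 0.995), with overlapping arrays. IFNB1 lay under background. The part of the interferons in the differences of the interferon-stimulated genes was not tested. Of 37 other genes of the pathway, 31 were analysed here, with a median difference of 0.01 by condition. The mean was higher after transduction for 19, against 51.8% of all genes, and lower for 12. Only 1 of the 31, the chemokine CXCL9, passed the threshold, against 0.153% of all genes. It read 8.97 and 8.80 in control and 9.85 and 9.61 in miR-124 arrays (difference 0.84, unadjusted p = 0.00157 from limma, adjusted p = 0.886). IRF3, the factor that switches on interferon genes after RNA sensing, had a difference of 0.31 (unadjusted p = 0.0259 from limma). By condition the receptor genes IFNAR1, IFNAR2, IFNGR1 and IFNGR2 lay between -0.13 and 0.18, and the 10 antigen presentation genes between -0.12 and 0.20. By number the 31 genes had a median difference of 0.03. In 16 of them array 2 was above array 1 in both conditions, against 34.2% of all genes, and in 8 below (31.7%). CXCL10 and CXCL9 were lower by number, at -0.49 and -0.21, and CXCL11 was higher, at 0.43. The antigen presentation genes lay between -0.29 and 0.38 by number.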

How the data were processed

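RNA of 4 SeAx samples, 2 control and 2 transduced with the miR-124 vector, was analysed on Affymetrix PrimeView arrays. The authors deposited log2 values made by RMA (background-corrected, quantile-normalized and summarized per probe set). The submitters' notes name RMA and limma without versions. These log2 values were used unchanged, and no scanner file was used here. Such normalization hides changes of total RNA content. Of 49495 probe sets, 202 array controls were left out. Of the 49293 tested, 45278 had 1 gene symbol, 1333 several and 2682 none in the platform annotation, and genes were named from 1 symbol only. The brightest probe set over the 4 arrays stood for each gene. Conditions were compared by lmFit and eBayes of limma 3.58.1, run in R 4.3.3 (condition as the only term, 2 residual degrees of freedom), fitted separately over all 18244 genes and over all probe sets, with Benjamini-Hochberg adjustment over each. Values for a representative probe set come from the gene fit, others from the probe set fit. The code was tested on simulated data. The number of arrays limits the precision.

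The genes and lists were chosen with earlier results of these data known. Values on every array are given for genes with a probe set past the threshold, the 5 largest rises and falls, the 5 brightest genes and the 5 with the largest difference by array number, and others are given by range or as examples of their role. Signals of different probe sets depend on their probes, and the order of their values is not an order of transcript levels. Of the other pathway genes, 6 were not analysed here. Alternatives were an array number block, leaving out single arrays, a filter on dim probe sets, cyclic loess, array weights, another prior, the mean of all probe sets, and other thresholds.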

Additional observations from a re-analysis of the deposited data

How the results depend on the processing

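The interferon-stimulated genes past the threshold numbered 0 on representative probe sets and 2 over all their probe sets. With single arrays left out these counts were 0 to 2 and 1 to 5, and the arrays of the conditions did not overlap in 25 to 36 genes, by construction more than the 13 with all arrays. The share of all genes without overlap was not counted for these fits. The median fold change of the interferon-stimulated genes was then between -0.14 and 0.10. In these fits a condition with 1 array borrows its spread from the other condition, and array number and condition are no longer balanced. Without miR-124 replicate 1 the counts over the whole array were highest. With the mean of all probe sets 1 gene, IFI35, passed, against 19 genes of the whole array. With probe sets above the median only, 1 probe set passed. Of the 31 genes then tested 7 did not overlap, and the share of all genes was not counted for this filter. At an unadjusted p alone 5 genes and 9 probe sets passed, and at an adjusted p none did (0 genes, 0 probe sets). Over all features 28 genes and 91 probe sets passed. With single arrays left out these were 33 to 340 and 129 to 1078, with probe sets above the median only 45 probe sets, at an unadjusted p alone 813 and 2331, and at an adjusted p 0 and 0.

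With a block for the array number, 49 genes and 167 probe sets of the whole array passed, and the counts of interferon-stimulated genes stayed at 0 and 2. The p-values with the block were read only for the 19 genes named with values on every array. Among these, the unadjusted limma p fell to 0.017 for ISG15, 0.046 for LGALS3BP, 0.048 for PLSCR1 and 0.036 for USP18. These passed 0.05 beside the 5 genes that did so without the block. Further interferon-stimulated genes may pass as well, and the share of all genes under 0.05 with the block was not counted. The differences between arrays 2 and 1 correlated between the conditions over all probe sets (r = 0.64), but whether a number pairs samples is not given.

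Of 21 fold changes of named genes or probe sets, 10 changed sign with 1 array left out, and none did under the other alternatives. Their ranges were -0.15 to 0.15 for BST2, -0.26 to 0.15 for IFI16, -0.66 to 0.60 for IFIT1, -0.06 to 0.17 for IFITM2, -0.12 to 0.72 for ISG15, -0.45 to 1.22 for LGALS3BP, -0.30 to 0.35 for OASL, -0.08 to 0.51 for PLSCR1, -0.63 to 0.52 for RSAD2 and -0.56 to 0.03 for SAMD9L. The cause was not tested.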
